A study of Mus musculus with 12 samples.

Results

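Bone marrow derived mast cells of wild type C57BL/6 mice were compared between 10 and 2 weeks of culture on 5 arrays, 3 at 10 weeks (replicates 1, 2 and 3) and 2 at 2 weeks (replicates 1 and 2). The arrays were chosen from the 6 wild type arrays of a series of 12, which also holds 6 arrays of ACKR2-/- mice, by the log2 signal of Fcer1a, which encodes the IgE-binding subunit of the mast cell IgE receptor and had to exceed 10. Fcer1a (probe set 10360338) read 13.82 and 13.92 at 2 weeks and 13.87, 13.74 and 13.93 at 10 weeks on the chosen arrays. It read 4.83 on the wild type array labelled 2 weeks, replicate 3, which was left out. Because these values selected the arrays, no test of Fcer1a is given. It still counts among the 19938 genes fitted and in the medians, means and sign counts of gene groups that hold it.

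All 5 samples share genotype, strain and culture medium and differ in the labelled week. Per the labels' protocols, marrow came from female mice aged 4 to 6 weeks and was grown with stem cell factor at 12.5 ng/ml and interleukin 3 at 10 ng/ml. Cells that had not adhered were moved to fresh flasks after 48 hours, and the protocols describe homogeneous mast cells from 4 weeks on. They add that some 2-week cultures were purified on a column for CD117, the product of Kit, without saying which arrays this concerns, so the weeks may also differ in purification. The labels call the replicates biological and name no animal or culture, so the p-values measure only the spread between these samples, which may be technical.

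Mast cells arise from marrow progenitors under Kit ligand and interleukin 3. They carry IgE on a receptor whose cross-linking releases granules loaded with histamine, proteoglycan and proteases, followed by newly made lipid mediators and cytokines. In culture the granules fill gradually, while the lineage is set by transcription factors such as Gata2 and Mitf. Marrow cultures also contain neutrophil, eosinophil, monocyte and basophil precursors, which are lost at different rates. In bulk RNA, fewer cells of a type and less RNA per cell cannot be told apart.

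The left-out array stood apart in more than Fcer1a. Its mean over 12 T and NK cell markers was 11.68 against 7.47 to 7.66 on the 5 chosen arrays, and it had a Y-linked signal (Eif2s3y 10.90 against 4.42 to 4.57) and Xist at 5.77 against 13.00 to 13.11, although the protocols name female mice. The 3 ACKR2-/- arrays labelled 2 weeks also read low for Fcer1a, and those labelled 10 weeks read above the threshold. Those 3 arrays labelled 2 weeks shared the Y-linked signal (Eif2s3y 10.57, 10.70 and 11.22). Their T and NK marker means were 11.58, 11.60 and 8.65. Ackr2, the gene deleted in the other genotype, read 7.88 to 8.35 on the chosen arrays. On the ACKR2-/- arrays it read 7.79 to 9.43, so this probe set did not separate the genotypes. Values are log2 signals that the authors normalised with RMA, and 19938 genes were tested.

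On the chosen arrays, most mast cell identity genes differed by less than 2-fold between 2 and 10 weeks, with more of them slightly lower than higher at 10 weeks. Choosing arrays by Fcer1a also favours high levels of the other mast cell genes at both weeks. The left-out 2-week array had a mean of 8.11 over this group, against 11.85 to 12.06 on the chosen arrays. Similar levels of these genes therefore follow in part from the choice of arrays. No gene passed limma's test of the 5 arrays at a Benjamini-Hochberg adjusted p under 0.05 (0% of genes, lowest adjusted p 0.922), while 931 genes had an unadjusted p under 0.05 (4.67%). A missed threshold does not show equal levels, so equality was described by the 95% interval of the difference, taken for 1 gene at a time. For 18487 genes (92.7%) that interval lay within 2-fold in either direction, that is between -1 and 1 on the log2 scale. All 10-week arrays lay above both 2-week arrays for 2040 genes (10.2%) and below them for 1942 (9.74%), and of these 37 and 17 differed by at least 2-fold.

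With the replicate number as a block, which compares 10 with 2 weeks within numbers 1 and 2 and gives no weight to 10-week array 3, 315 genes were called (1.58%), 220 higher at 10 weeks (1.1%) and 95 lower (0.476%). Of these, 32 differed by at least 2-fold. This paired fit has 1 residual degree of freedom, so its error is nearly the same for every gene (median SE 0.16) and comes almost wholly from the spread shared over genes. The count depends on that and on scaling: it was 18 after a further quantile normalization, 2 with each gene's own variance and 0 with the left-out array added. With the number as a random block instead, 0 genes were called. Differences given below as called are calls of the paired fit, and a difference not named as paired is over all 5 arrays.

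Kit, the stem cell factor receptor (probe set 10522530), read 13.85 and 13.90 at 2 weeks and 13.72, 13.61 and 13.73 at 10 weeks. The 10-week arrays lay slightly below both 2-week arrays, and the difference was -0.19 ± 0.14 (SE), with a 95% interval of -0.52 to 0.14. Ms4a2, the beta chain of the IgE receptor, read 13.09 and 13.06, then 12.78, 12.80 and 12.80, a difference of -0.28 ± 0.14. Gata2, a transcription factor needed for the lineage, read 13.81 and 13.85, then 13.77, 13.72 and 13.75, a difference of -0.09 ± 0.14 with an interval of -0.41 to 0.24. For each of these 3 genes the weeks did not overlap, yet the interval excluded a 2-fold difference.

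In the whole group of mast cell receptors and identity genes, small differences below 0 were the more frequent. Of its 25 measured members 0 were called by either fit, 22 had an interval within 2-fold (88.0% against 92.7% of all genes) and 19 had a difference below 0. All 10-week arrays lay below both 2-week arrays for 11 members (9.74% of all genes) and above them for 1 (10.2% of all genes). The group median was -0.14 against 0.00 over all genes, and the means per array were 12.04 and 12.06 at 2 weeks and 12.02, 11.87 and 11.85 at 10 weeks. Cd34, a sialomucin of progenitors and mouse mast cells, read 12.66 and 12.56, then 12.43, 12.12 and 12.04, a difference of -0.41 ± 0.17 at an unadjusted p of 0.0464. Cd200r3, an activating receptor of mast cells and basophils, read 12.48 and 12.61, then 12.36, 12.33 and 12.12.

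**Figure D1:**
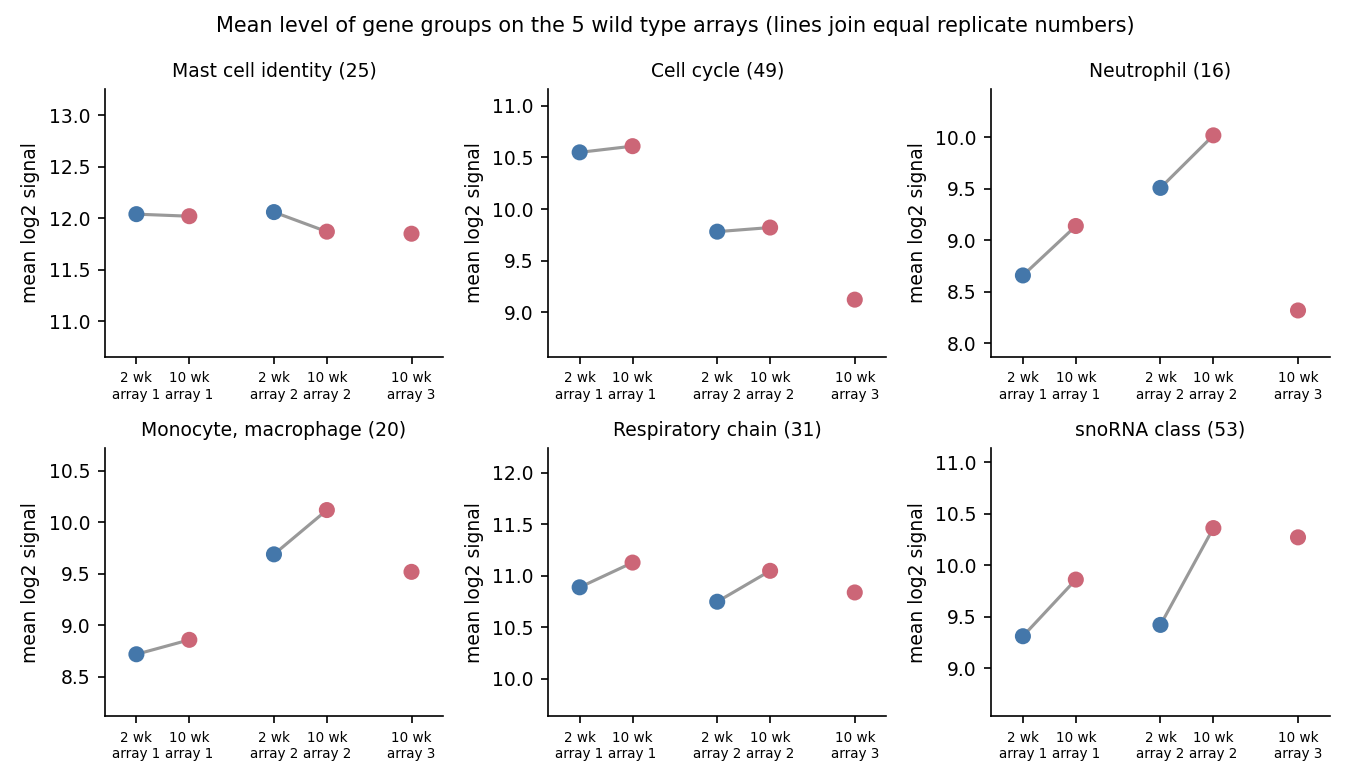
Mean log2 signal of 6 gene groups on each of the 5 arrays (number of measured genes in parentheses), with blue points for 2 weeks, red points for 10 weeks and grey lines joining equal replicate numbers; every panel spans the same range of log2 units around its own centre. Mast cell identity genes lie between 11.85 and 12.06 on all arrays, cell cycle and monocyte genes differ more between replicate numbers than between weeks, and snoRNA means run from 9.31 and 9.42 at 2 weeks to 9.86, 10.36 and 10.27 at 10 weeks.

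Granule proteases fell into a level set and a variable set. Tpsb2, a tryptase, read 12.05 and 12.04 at 2 weeks and 12.19, 12.02 and 12.04 at 10 weeks, a difference of 0.03 ± 0.14. Cpa3, the mast cell carboxypeptidase, read 14.14 and 14.26, then 14.14, 13.86 and 13.63, a difference of -0.32 ± 0.19. Cma1, a chymase, read 11.74 and 11, then 11.96, 11.07 and 11.28, so arrays numbered 1 were high at both weeks and the weeks overlapped.

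The granzyme Gzmb read 13.49 and 13.87 at 2 weeks and 13.41, 13.65 and 13.37 at 10 weeks, and its interval of -0.62 to 0.22 lay within 2-fold. Prss34 and Mcpt8, proteases best known from basophils, had differences of 0.43 ± 0.21 and 0.19 ± 0.22 with overlapping weeks. All 6 basophil markers, which share Gata2, Cpa3 and Cd200r3 with mast cells, had intervals within 2-fold. Of 16 proteases measured, 11 had an interval within 2-fold (68.8% against 92.7% of all genes) and 1 was called (6.25% against 1.58%). That was Gzma, a granzyme, which read 7.07 and 5.87, then 7.83, 6.29 and 6.25. Its paired difference was 0.59 ± 0.16 (limma adjusted p 0.0426) and its difference over 5 arrays was 0.32 ± 0.54.

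The proteases Mcpt1, Mcpt2 and Mcpt4, typical of mucosal and connective tissue mast cells, had wide intervals. Mcpt2 read 12.54 and 10.95 at 2 weeks and 12.75, 10.63 and 8.61 at 10 weeks. Mcpt4 read 12.33 and 10.90, then 12.66, 11.21 and 9.05. For both, arrays with the same number lay close together and 10-week array 3 was lowest. The difference between weeks was -1.08 ± 1.08 for Mcpt2 and -0.64 ± 0.95 for Mcpt4, and the paired difference was -0.05 ± 0.16 and 0.32 ± 0.16 (limma adjusted p 0.97 and 0.494). Near-identical protease genes can share probes, which makes these levels uncertain.

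**Figure D2:**
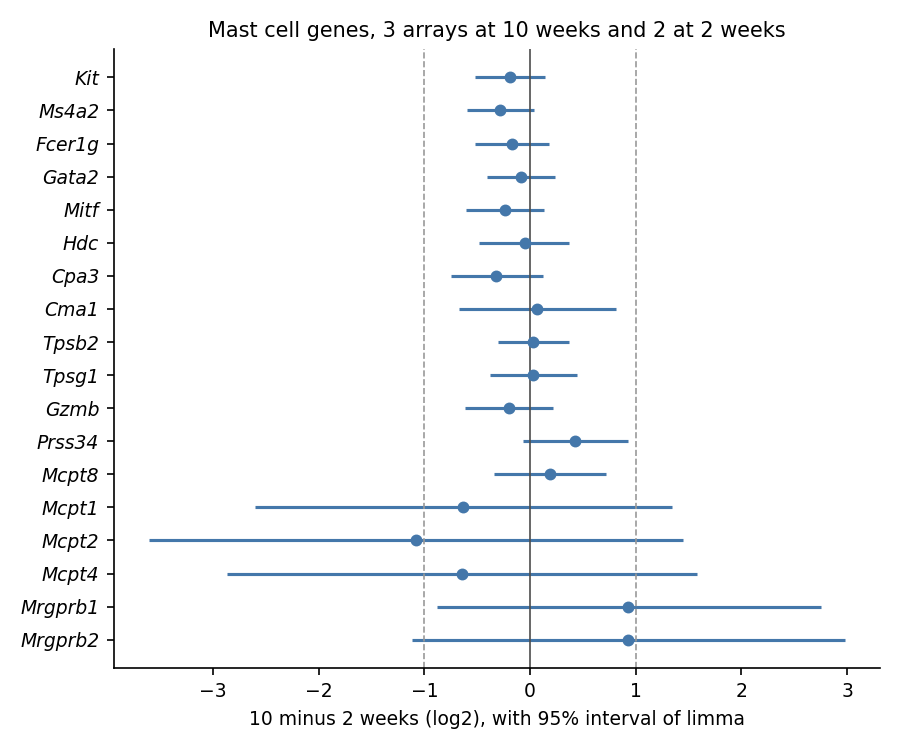
Difference between 10 and 2 weeks in log2 units (points) with limma's 95% interval (bars) for 18 mast cell genes over the 5 arrays, with dashed lines at a 2-fold difference. Kit, Ms4a2, Gata2, Hdc, Cpa3 and Tpsb2 stay between the dashed lines, while the intervals of Mcpt1, Mcpt2, Mcpt4, Mrgprb1 and Mrgprb2 cross them.

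Genes of mediator synthesis had few calls, and their shares of intervals within 2-fold lay below that of all genes (92.7%). Hdc, which makes histamine, read 12.12 and 11.76 at 2 weeks and 12.07, 11.86 and 11.73 at 10 weeks, a difference of -0.05 ± 0.18. Slc18a2, which loads amines into granules, differed by 0.02 ± 0.15, and Tph1, which starts serotonin synthesis, by -0.22 ± 0.15. Of 17 histamine and serotonin genes 14 had an interval within 2-fold (82.4%) and 0 were called. Htr2b, a serotonin receptor at a low level, read 6.07 and 6.15, then 6.45, 6.67 and 7.02, a difference of 0.60 ± 0.19 at an unadjusted p of 0.0169.

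Among 26 genes of serglycin and heparin synthesis, 23 had an interval within 2-fold (88.5%) and 1 was called (3.85% against 1.58% of all genes). Ndst2, the enzyme that starts heparin sulphation, differed by -0.18 ± 0.14. Papss2, which makes the sulphate donor, read 12.69 and 12.54 at 2 weeks and 12.26, 11.76 and 11.32 at 10 weeks. The weeks did not overlap, the difference was -0.84 ± 0.27 and the paired difference was -0.61 ± 0.16 (limma adjusted p 0.0328).

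Of 18 eicosanoid genes 14 had an interval within 2-fold (77.8%) and 0 were called. Alox5, the lipoxygenase that starts leukotriene synthesis, read 13.68 and 13.70, then 13.65, 13.49 and 13.54, a difference of -0.13 ± 0.14. Lta4h, the next enzyme towards leukotriene B4, read 11.26 and 11.11, then 11.08, 10.75 and 10.09. Its weeks did not overlap, with a difference of -0.54 ± 0.28 and an unadjusted p of 0.0931. Ptges3, a prostaglandin E synthase and chaperone, differed by -0.63 ± 0.24.

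In the lists of activating and inhibitory receptors, 3 members were called. Of 35 activating and subtype receptors, 30 had an interval within 2-fold (85.7% against 92.7% of all genes) and 1 was called (2.86% against 1.58%). Of 24 inhibitory receptors, 19 had such an interval (79.2%) and 2 were called (8.33%). Cysltr2, a receptor for cysteinyl leukotrienes, read 6.96 and 7.46 at 2 weeks and 6.59, 6.06 and 5.78 at 10 weeks, a difference of -1.06 ± 0.27 without overlap and a paired difference of -0.88 ± 0.17 (limma adjusted p 0.00143). These values lay below the array medians of 7.76 to 7.83, so the signal may be background. Ptger1, a prostaglandin E2 receptor outside these lists, was also called. It read 8.80 and 8.90, then 9.51, 10.10 and 10.48, a difference of 1.18 ± 0.27 and a paired difference of 0.96 ± 0.16 (limma adjusted p 0.000155). Ptger3, another receptor of the same ligand, differed by -0.11 ± 0.15.

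The called members of the inhibitory list were Pilra and Clec12a. Pilra read 9.61 and 9.67 at 2 weeks and 10.17, 10.30 and 9.67 at 10 weeks, so array 3 sat at the higher 2-week value to 2 decimals, and the difference was 0.41 ± 0.21. Clec12a, found on myeloid cells, read 8.68 and 9.15, then 9.26, 9.76 and 7.53. Its paired difference was 0.60 ± 0.16 (limma adjusted p 0.0352), but over 5 arrays it was -0.06 ± 0.59, with 10-week array 3 lowest.

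Signalling below the IgE receptor had close to the background share of intervals within 2-fold. Of 33 members 31 had one (93.9% against 92.7% of all genes) and 0 were called. Lat and Lat2, adaptors of the receptor, differed by 0.26 ± 0.14 and 0.09 ± 0.14. Inpp5d, a phosphatase that restrains degranulation, read 13.11 and 13.12, then 12.89, 12.66 and 12.75, a difference of -0.35 ± 0.15 at an unadjusted p of 0.0488.

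Of 29 exocytosis genes 26 had an interval within 2-fold (89.7%) and 0 were called. Among these SNARE proteins, Snap23 read 12.83 and 12.82, then 12.57, 12.21 and 12.01, and Vamp8 read 11.02 and 11.15, then 11.44, 11.54 and 11.54. Their differences had opposite signs, -0.56 ± 0.19 and 0.42 ± 0.14, each without overlap. Lysosomal genes (25 of 29 within 2-fold, 86.2%) and cytokines and growth factors (32 of 36, 88.9%) had 0 calls. Ctsd, a lysosomal protease, differed by 0.00 ± 0.14.

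In the early response group, 2 of 35 members were called lower (0.476% of all genes). Its median difference was -0.18, and 23 members had an interval within 2-fold (65.7% against 92.7% of all genes). Dusp1, a phosphatase that switches off MAP kinases, read 13.00 and 13.29 at 2 weeks and 12.24, 12.54 and 12.50 at 10 weeks. All 10-week arrays lay below both 2-week arrays, with a difference of -0.72 ± 0.17 and a paired difference of -0.75 ± 0.16 (limma adjusted p 0.00311). Tnfaip3, an inhibitor of NF-kB signalling, read 11.03 and 11.13, then 10.41, 10.20 and 10.75, a difference of -0.62 ± 0.19 and a paired difference of -0.77 ± 0.16 (limma adjusted p 0.00258). Egr1 differed by 0.10 ± 0.15.

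Uprt, whose name marks it as a uracil phosphoribosyltransferase homologue, had the most negative difference among the genes listed by lowest unadjusted p. Uprt (probe set 10601328) read 10.11 and 9.46 at 2 weeks and 8.63, 7.76 and 7.77 at 10 weeks, a difference of -1.73 ± 0.32 and a paired difference of -1.59 ± 0.16 (limma adjusted p 8.31e-10). It was low on all 3 arrays at 10 weeks. It was the 1 gene that was lower by more than 2-fold within both pairs, while 14 genes were higher by as much within both.

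Pdcd4, an inhibitor of translation, read 12.09 and 12.38 at 2 weeks and 11.34, 11.13 and 10.81 at 10 weeks, a difference of -1.14 ± 0.20 and a paired difference of -1.00 ± 0.16 (limma adjusted p 8.01e-05). Cd59a, which blocks the complement pore, read 9.89 and 10.35, then 9.35, 8.64 and 7.48, a difference of -1.63 ± 0.49 and a paired difference of -1.12 ± 0.18. Nsun3, a methyltransferase of a mitochondrial transfer RNA, read 10.77 and 10.40, then 10.00, 9.01 and 8.66, a difference of -1.36 ± 0.37 and a paired difference of -1.08 ± 0.16. For these 3 genes, too, the weeks did not overlap.

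Zfand2a, a heat-inducible partner of the proteasome, read 11.47 and 11.18 at 2 weeks and 10.47, 10.10 and 9.62 at 10 weeks, and Zfand1 read 10.10 and 10.17, then 9.52, 8.79 and 8.72. Gatc, a subunit of the mitochondrial glutamyl transfer RNA amidotransferase, read 10.59 and 10.27, then 9.97, 9.04 and 8.74. Bin2, which binds membranes, read 11.20 and 11.16, then 10.39, 10.34 and 9.71. All 4 were called lower, with differences between -1.26 and -1.04 and paired differences between -1.04 and -0.82, and had no overlap between weeks.

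Among genes called higher, Lsm5, part of a ring that binds U6 small nuclear RNA and messenger RNA ends, read 9.05 and 8.76 at 2 weeks and 9.86, 10.06 and 9.94 at 10 weeks. The weeks were far apart relative to their spread, with a difference of 1.05 ± 0.16 and a paired difference of 1.06 ± 0.16 (limma adjusted p 2.82e-05). Smim26, a small mitochondrial protein, read 7.70 and 7.57, then 8.59, 8.58 and 8.46, a difference of 0.91 ± 0.14. Tmsb10, which binds actin monomers, read 11.31 and 11.64, then 12.07, 12.78 and 12.23, a difference of 0.89 ± 0.24 and a paired difference of 0.95 ± 0.16.

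**Figure D3:**
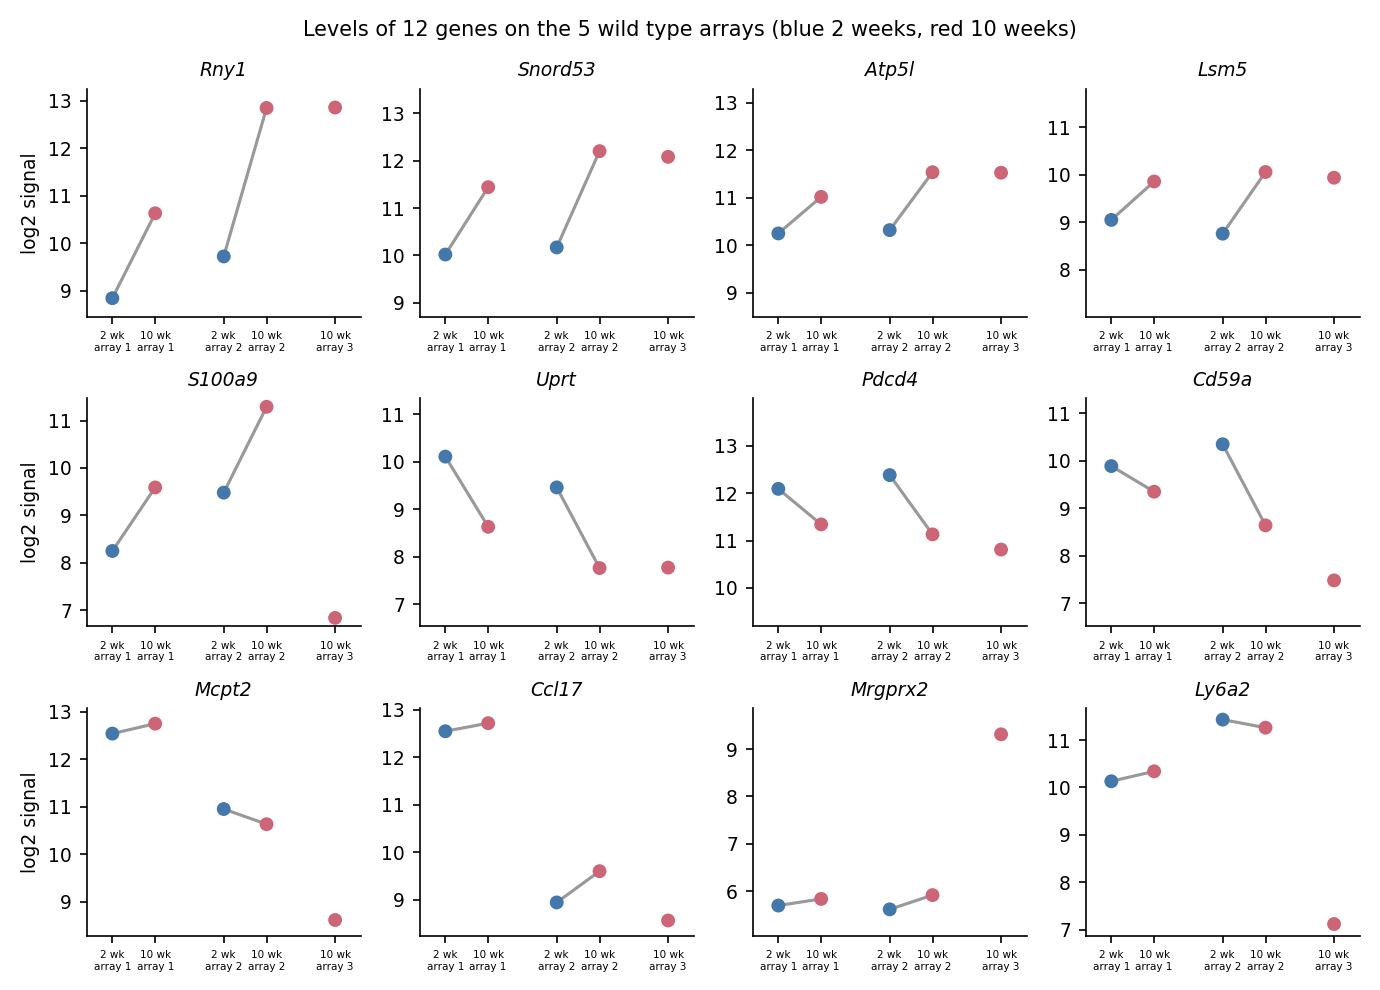
Log2 signal of 12 genes on the 5 arrays, with blue points for 2 weeks, red points for 10 weeks and grey lines joining equal replicate numbers; every panel spans the same range around its own centre. Rny1, Snord53, Atp5l and Lsm5 are higher and Uprt, Pdcd4 and Cd59a lower on every 10-week array, Mcpt2 and Ccl17 follow the replicate number, and Mrgprx2, Ly6a2 and S100a9 are apart on 10-week array 3.

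Small subunits of the mitochondrial energy chain were among the higher genes. Atp5l, a subunit of ATP synthase, read 10.25 and 10.32 at 2 weeks and 11.02, 11.54 and 11.53 at 10 weeks, a difference of 1.08 ± 0.20 and a paired difference of 0.99 ± 0.16 (limma adjusted p 8.01e-05). Ndufb6, a subunit of complex I, read 11.18 and 10.96, then 12.16, 11.87 and 11.79, a difference of 0.87 ± 0.17 and a paired difference of 0.95 ± 0.16. Uqcr11, a subunit of complex III, read 9.96 and 10.04, then 10.82, 10.86 and 10.76, a difference of 0.82 ± 0.14 and a paired difference of 0.84 ± 0.16. None of the 3 overlapped between weeks.

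Of 31 respiratory chain genes 24 had a difference above 0, 13 were higher without overlap (10.2% of all genes) and 3 were called higher (1.1% of all genes). The 3 were Ndufa1, Ndufa4 and Atp5o, and 29 of 31 intervals lay within 2-fold (93.5% against 92.7% of all genes). The group median was 0.15, and the means per array were 10.89 and 10.75 at 2 weeks and 11.13, 11.05 and 10.84 at 10 weeks, so array 3 lay between the 2-week arrays. Atp5a1, a catalytic subunit of ATP synthase, read 12.42 and 12.35, then 12.51, 12.39 and 12.41.

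Families taken by gene symbol after their values were seen are given beside the 1.1% of all genes called higher. Of 35 complex I genes 7 were called higher (20%), of 17 ATP synthase genes 5 (29.4%), of 77 mitochondrial ribosomal protein genes 7 (9.09%) and of 65 cytosolic ribosomal protein genes 3 (4.62%), and 0 were called lower in each of these families. Of 15 cytochrome oxidase genes 0 were called, and of 40 proteasome genes only Psmc5 (2.50%). Psmc5 read 8.72 and 8.43 at 2 weeks and 9.54, 9.29 and 9.41 at 10 weeks. Median paired differences were 0.33 for complex I, 0.29 for cytochrome oxidase, 0.27 for mitochondrial ribosomal proteins, 0.19 for the proteasome, 0.15 for ATP synthase and 0.14 for cytosolic ribosomal proteins, against -0.03 for all genes. Over 5 arrays the medians were 0.22, 0.14, 0.23, 0.06, 0.12 and 0.11 in the same order. The paired fit gives no weight to 10-week array 3. Its mean was the lowest of all for the proteasome (10.34 against 10.40 to 10.71). For mitochondrial ribosomal proteins it lay between the 2-week arrays, and for the other families above both.

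Genes that RefSeq classes as small nucleolar or small nuclear RNA had the largest shares of calls among the classes summarised. Small nucleolar RNAs (snoRNAs) guide the chemical modification of ribosomal RNA and are mostly cut from introns of host genes, many of which encode ribosomal proteins. They lay outside the rule for naming genes and were examined after their values were seen. Of 53 measured snoRNA genes 37 were higher at 10 weeks without overlap (10.2% of all genes). In the paired fit 31 were called higher (58.5% against 1.1% of all genes) and 0 lower (0.476% of all genes). The median difference was 0.91 over 5 arrays and 0.78 in the paired fit.

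The median snoRNA signal was 9.40 and 9.36 at 2 weeks and 9.95, 10.73 and 10.31 at 10 weeks, so each 10-week array exceeded both 2-week arrays. Snord53 (probe set 10446713) read 10.02 and 10.17 at 2 weeks and 11.44, 12.20 and 12.08 at 10 weeks, a difference of 1.81 ± 0.24 and a paired difference of 1.72 ± 0.16 (limma adjusted p 2.2e-10). Snord52 read 6.37 and 6.27, then 7.71, 8.72 and 8.81, and Snord87 read 8.52 and 8.74, then 9.95, 10.93 and 11.11. Array 1 was the lowest at 10 weeks for all 3 and still lay above both 2-week arrays.

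Without 10-week array 1, the fit of the remaining 4 arrays without a block called 4 genes, and all 4 were snoRNA genes. They were Snord33, Snord52, Snord53 and Snord87, with differences of 2.09, 2.45, 2.04 and 2.39 and limma adjusted p between 0.0232 and 0.0493. The 4 were chosen for their calls in that smaller fit. The level was not stable across the other arrays of the series: the median was 9.82 to 9.90 on the ACKR2-/- arrays labelled 10 weeks and 11.63 on the left-out wild type array. It was 11.73, 11.50 and 11.42 on the ACKR2-/- arrays labelled 2 weeks, so all 4 arrays labelled 2 weeks with low Fcer1a lay above every array labelled 10 weeks. The number of snoRNA genes called in the paired fit was 9 after a further quantile normalization and 0 with each gene's own variance or with the left-out array.

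Other short transcripts were called as well. Rny1, a Y RNA that binds the Ro60 protein, had the largest paired difference of the genes listed here. Rny1 read 8.84 and 9.72 at 2 weeks and 10.63, 12.85 and 12.86 at 10 weeks, a difference of 2.83 ± 0.67 and a paired difference of 2.46 ± 0.18 (limma adjusted p 1.61e-13). Vaultrc5, a vault RNA, read 9.72 and 9.88, then 10.78, 12.16 and 12.88. Of 7 genes that RefSeq classes as small nuclear RNA 4 were called higher (57.1% against 1.1% of all genes). They were Rnu12 of the minor spliceosome, Rnu3a, Rnu5g and Snord73b. The symbol of Snord73b is that of a snoRNA, so the class does not hold small nuclear RNAs alone. Rnu6 and Rnu7 differed by -0.05 ± 0.18 and 0.10 ± 0.29. Rn7sk, which holds back transcription elongation, differed by 0.09 ± 0.14 near the top of the scale.

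**Figure D4:**
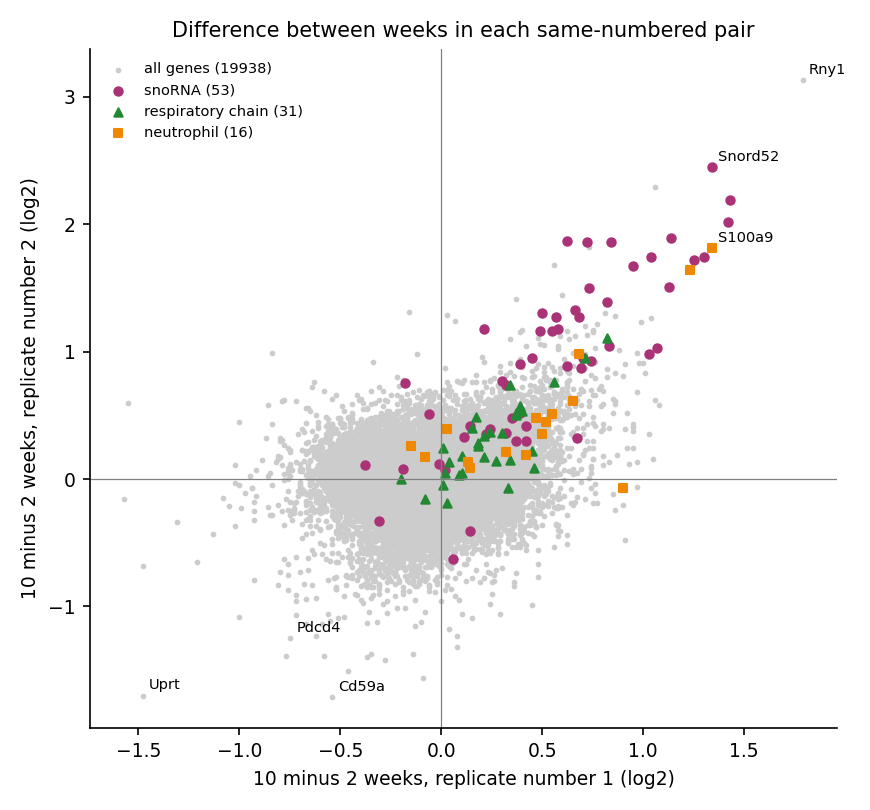
Difference between 10 and 2 weeks in log2 units within replicate number 1 (horizontal) and within replicate number 2 (vertical) for 19938 genes in grey, with snoRNA genes as magenta circles, respiratory chain genes as green triangles and neutrophil markers as orange squares. Most snoRNA genes lie above 0 on both axes and further from 0 in pair 2, Rny1 is highest, and Uprt is low in both pairs.

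The measured genes that contain snoRNAs had a median paired difference near 0. Of the 53 snoRNA genes 29 lay inside a measured gene, in 25 different hosts by RefSeq positions without regard to strand. The other snoRNA genes, Snord52 and Snord87 among them, had no measured host. The median paired difference was 0.54 for these 29 snoRNA genes and 0.04 for the 25 hosts, 15 of which were above 0. The median host signal was 11.69 and 11.64 at 2 weeks and 11.85, 12.03 and 11.98 at 10 weeks. Each 10-week array thus exceeded both 2-week arrays for the hosts too, by less than for the snoRNAs. In 23 of 25 hosts the mean difference of the contained snoRNAs exceeded that of the host.

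Gas5, a noncoding host, was called higher with a difference of 0.74 and a paired difference of 0.69 (limma adjusted p 0.00965), and its Snord47 had 1.52. Snhg17, whose name marks it as a snoRNA host gene, was also called higher but was not among the 25 hosts. Rian, an imprinted noncoding host, was called lower with a difference of -0.57 and a paired difference of -0.71 (limma adjusted p 0.00678). Rps3, a protein of the small ribosomal subunit, had a paired difference of -0.05, while its Snord15a and Snord15b had 1.49 and 1.39. Wdr43, a ribosome assembly factor, had 0.08 against 1.72 for its Snord53.

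**Figure D5:**
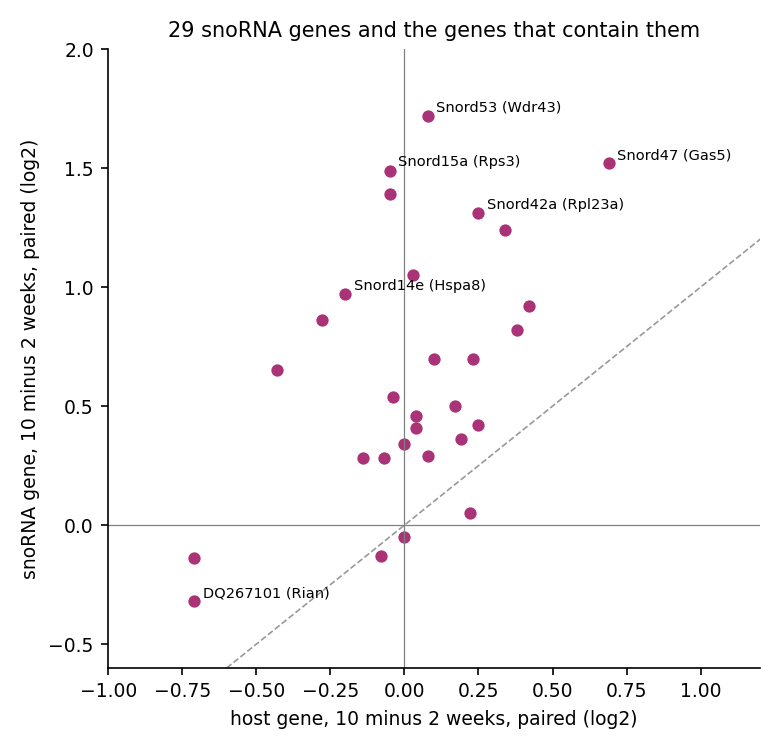
Paired difference between 10 and 2 weeks in log2 units of 29 snoRNA genes (vertical) against the gene that contains each (horizontal), with a dashed line where both are equal. Most points lie above the line, such as Snord53 in Wdr43 (1.72 against 0.08), while the host differences centre near 0 with a median of 0.04 over 25 hosts.

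MicroRNA genes had differences near 0. Their 297 probe sets had a median difference of 0.00 over 5 arrays and -0.08 in the paired fit, and 3 were called (1 higher and 2 lower). That is 1.01% of them against 1.58% of all genes, so the calls are not a result about the class. Mir15a read 7.02 and 7.14 at 2 weeks and 7.81, 7.88 and 9.13 at 10 weeks, a difference of 1.19 ± 0.38 and a paired difference of 0.76 ± 0.16 (limma adjusted p 0.00292). Mir29a read 4.87 and 5.05, then 4.46, 4.30 and 4.61, and Mir568 read 7.02 and 7.60, then 6.46, 6.54 and 5.93. Their differences were -0.51 ± 0.16 and -1.01 ± 0.25 and their paired differences -0.58 ± 0.16 and -0.81 ± 0.16. None of the 3 overlapped between weeks.

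A probe set here names the microRNA gene, and whether it measured a precursor or a mature arm was not examined. The mature sequences of the 3 called microRNA genes are shown for reference. They are RefSeq's on GRCm38.p6, written 5′ to 3′ with the seed, bases 2 to 8, in capitals. They come from the minus strand at chr14:61632075-61632096 and chr14:61632038-61632059 (Mir15a), the minus strand at chr6:31062673-31062694 and chr6:31062711-31062732 (Mir29a) and the plus strand at chr16:43640665-43640684 (Mir568). No seed is shared among the 5.
mmu-miR-15a-5p: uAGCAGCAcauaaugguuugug
mmu-miR-15a-3p: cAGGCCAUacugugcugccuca
mmu-miR-29a-3p: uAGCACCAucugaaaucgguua
mmu-miR-29a-5p: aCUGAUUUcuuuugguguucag
mmu-miR-568: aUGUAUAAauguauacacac

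Markers of granulocytes were called higher within pairs but not across all arrays. S100a9, a calcium-binding protein abundant in neutrophils (probe set 10499861), read 8.25 and 9.48 at 2 weeks and 9.59, 11.29 and 6.84 at 10 weeks. Its partner S100a8 read 8.42 and 10.20, then 9.65, 11.84 and 6.92. For both, each 10-week array exceeded the 2-week array of its number, and 10-week array 3 lay below all others. The paired differences were 1.57 ± 0.16 and 1.43 ± 0.16 (limma adjusted p 1.83e-09 and 1.52e-08), and over 5 arrays the differences were 0.37 ± 1.13 and 0.16 ± 1.27.

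Of 16 neutrophil markers 4 were called higher (1.1% of all genes), S100a8, S100a9, the granule protease Prtn3 and lactoferrin (Ltf), and 4 had an interval within 2-fold (92.7% of all genes). The means over the 16 were 8.66 and 9.51 at 2 weeks and 9.14, 10.02 and 8.32 at 10 weeks. Of 7 eosinophil markers 2 were called higher (1.1% of all genes) and 4 had an interval within 2-fold. The 2 were the granule proteins Prg2 and Prg3. The means over the 7 were 7.99 and 8.11, then 8.48, 8.30 and 7.47. In both groups array 3 had the lowest mean of all. Prg2 had a paired difference of 0.57 ± 0.16 and, over 5 arrays, -0.15 ± 0.62.

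Cebpa, a transcription factor of granulocyte and monocyte development, read 9.35 and 9.51 at 2 weeks and 10.00, 10.50 and 10.19 at 10 weeks. All 10-week arrays, array 3 included, exceeded both 2-week arrays, with a difference of 0.80 ± 0.19 and a paired difference of 0.82 ± 0.16 (limma adjusted p 0.00125). It was the 1 call among 52 lineage transcription factors (1.92% against 1.58% of all genes), 41 of which had an interval within 2-fold (78.8%). Ahr, the aryl hydrocarbon receptor, read 11.99 and 12.08, then 11.66, 11.50 and 11.40, a difference of -0.51 ± 0.15 at an unadjusted p of 0.0108. Myb, a factor of progenitors, differed by -0.42 ± 0.18. Among 12 progenitor markers, Cd34 and Myb included, 6 had a difference above 0 and 6 below, with a median of 0.03. The 1 called was Spink2, which was higher (8.33% against 1.1% of all genes).

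Of 20 monocyte and macrophage markers 3 were called higher (1.1% of all genes) and 4 had an interval within 2-fold (20% against 92.7% of all genes). Mpeg1, a pore-forming protein of macrophages, read 8.49 and 10.64 at 2 weeks and 8.89, 11.51 and 10.31 at 10 weeks, and Ms4a7 read 7.04 and 8.74, then 7.68, 9.84 and 8.39. Arrays numbered 1 were low at both weeks. The paired differences were 0.64 ± 0.16 for Mpeg1 and 0.87 ± 0.16 for Ms4a7 (limma adjusted p 0.0225 and 0.000717). Over 5 arrays they were 0.68 ± 0.83 and 0.74 ± 0.68, each smaller than or close to its error.

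The class II molecules H2-Aa and H2-Ab1, which present peptide on antigen-presenting cells, were called higher and did not overlap. H2-Aa read 10.77 and 10.86 at 2 weeks and 11.11, 11.77 and 11.39 at 10 weeks, a difference of 0.61 ± 0.21 and a paired difference of 0.63 ± 0.16 (limma adjusted p 0.0308). Ciita, their transactivator, differed by 0.19 ± 0.16. The part of monocytes or granulocytes in these differences was not tested.

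Markers of lymphoid, dendritic, erythroid and stromal cells had 1 call. All 10 B cell markers and all 5 erythroid markers had intervals within 2-fold, as did 7 of 8 dendritic and 10 of 12 stromal markers, with 0 called in these groups. Of 12 T and NK markers 9 had such an interval (75.0% against 92.7% of all genes), and 1 was called (8.33% against 1.58%). Without overlap, 2 were higher (10.2% of all genes) and 1 was lower (9.74% of all genes). Cd3d, part of the T cell receptor complex, read 6.13 to 6.48 on the 5 arrays. Thy1, also made by mast cells in mice, was the marker called, with 9.91 and 8.59 at 2 weeks and 10.60, 9.17 and 8.87 at 10 weeks. Its paired difference was 0.63 ± 0.16 (limma adjusted p 0.0205), and over 5 arrays it was 0.30 ± 0.56 with overlapping weeks.

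Cell cycle genes had similar levels on arrays of the same replicate number. Of 49 members 15 had an interval within 2-fold (30.6% against 92.7% of all genes) and 2 were called higher (1.1% of all genes), Birc5, which acts in chromosome segregation, and Gmnn, which prevents replication from starting again. The means were 10.55 and 9.78 at 2 weeks and 10.61, 9.82 and 9.12 at 10 weeks, so equal numbers lay close together and array 3 was lowest. The median difference was -0.28 over 5 arrays and 0.03 in the paired fit. Gmnn read 7.10 and 6.58, then 8.16, 7.20 and 6.95, a difference of 0.59 ± 0.36 and a paired difference of 0.84 ± 0.16 (limma adjusted p 0.00102).

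Other metabolic and stress groups had 1 call. Of 28 cholesterol synthesis genes 22 had an interval within 2-fold (78.6% against 92.7% of all genes), of 29 glycolysis and hypoxia genes 27 (93.1%), of 32 genes of the unfolded protein and amino acid response 29 (90.6%), and of 26 interferon-stimulated genes 25 (96.2%). The call was Higd1a, a hypoxia-induced protein of the mitochondrial inner membrane (3.45% of the glycolysis and hypoxia genes against 1.58% of all genes). Higd1a read 7.82 and 7.73 at 2 weeks and 8.57, 8.65 and 8.18 at 10 weeks, a difference of 0.69 ± 0.18. Of 28 integrin and adhesion genes 23 had such an interval and 0 were called. Of 23 inhibitors of the cell cycle 18 had one and 0 were called, with Rb1 at 12.36 and 12.10, then 12.09, 11.39 and 11.15.

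Among 25 chemokines 18 had an interval within 2-fold (72.0% against 92.7% of all genes) and 3 were called (12% against 1.58%), of which Ccl24, an eosinophil attractant, was higher and Cxcl2 and Ppbp, which attract neutrophils, were lower. Ppbp read 10.25 and 12.69 at 2 weeks and 9.17, 12.53 and 9.78 at 10 weeks, so the arrays numbered 2 were highest at both weeks. Its difference was -0.97 ± 1.05 and its paired difference -0.62 ± 0.17 (limma adjusted p 0.0483). Ccl2 read 13.28 to 13.60 on all 5 arrays.

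Equal replicate numbers resembled each other across weeks more than arrays of one week did. Over the 4 arrays numbered 1 and 2, 57.8% of the sum of squares over genes lay between replicate numbers, 26.1% between weeks and 16% in the remainder. A difference of more than 1 was found for 313 genes between numbers and for 32 between weeks. Across genes, which are not independent replicates, the Pearson correlation was 0.993 between the arrays numbered 1 and 0.991 between those numbered 2, against 0.990 between the 2-week arrays and 0.981 between 10-week arrays 1 and 2.

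The genes that followed the number were chosen for that pattern and are given as values. Ccl17, which attracts T helper cells, read 12.55 and 8.94 at 2 weeks and 12.72, 9.60 and 8.56 at 10 weeks. Fn1, fibronectin, read 8 and 11.27, then 7.98, 11.68 and 11.39. Ccr2, the receptor that draws monocytes from marrow, read 10.21 and 12.90, then 10.35, 12.81 and 11.36. Ccl17 was high and Fn1 and Ccr2 were low on the arrays numbered 1 at both weeks.

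The third 10-week array lay more than 1 above all of the other 4 for 20 genes and more than 1 below for 75. Mrgprx2, one of the Mas-related receptors that respond to basic peptides, read 9.31 there and 5.62 to 5.92 on the others. Mrgprb2, the mouse mast cell receptor for such peptides, read 12.17 there against 8.77 to 9.70, and Mrgprb1 read 9.29 against 6.35 to 6.73. The first ACKR2-/- array labelled 10 weeks had like values of 9.15, 12.38 and 9.19 for these genes.

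Ngp, a neutrophil granule protein, read 6.49 on the third 10-week array against 9.75 to 10.87, and Ly6a2 read 7.12 against 10.13 to 11.43. Myc, a driver of growth, read 10.02 there against 11.74 to 12.20. These genes were selected for their distance on that array, so no test applies. Whether they reflect time in culture cannot be told apart from the array, because no 2-week array numbered 3 was chosen.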

How the data were processed

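RNA of 12 samples labelled as cultured mast cells, 4 of which read low for Fcer1a, was measured on single-colour oligonucleotide arrays, and 5 wild type arrays with an Fcer1a signal above 10 are compared here. Per the submitters' processing notes, the authors used Partek 6.5 and RMA to make the deposited log2 signals. RMA equalises the arrays' distributions, so a shift common to all genes cannot be seen. Neither genome build nor annotation is given in the sources used here, and detection calls and scan batches were not examined, so low signals may be background. The number of arrays limits the precision.

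Of 35399 probe sets, 21789 had 1 gene symbol in the platform annotation. The probe set with the highest mean was kept for the 999 genes with several, leaving 19938 genes. RefSeq (GRCm38.p6) gave classes, snoRNA hosts and microRNA sequences.

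Weeks were compared with limma 3.58.1 in R 4.3.3 on the 5 arrays alone, without a block, and with the replicate number as a block (3 and 1 residual degrees of freedom, to which moderation added 4.2 and 47.7). P-values were adjusted by Benjamini-Hochberg over all genes. Errors are limma's standard errors. Scripts were tested on simulated data. The labels do not say what a replicate number marks. The paired fit was planned as an alternative and is given beside the unpaired one. Over the 6 wild type arrays, deviations from the week means correlated at 0.359, 0.203 and 0.166 for equal numbers and at most 0.0232 for others. These correlations cannot show that equal numbers are pairs. Deviations from a week mean cancel out, so the values are partly forced, and the left-out array enters the 2-week mean and gave the 0.166. Over the chosen arrays the forcing is stronger, because 2 arrays deviate symmetrically from their mean.

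The members, the 36 gene lists (731 of 788 genes measured) and the naming rule were chosen with earlier results of these data known. The rule names, per direction, up to 15 genes with the largest difference among those past the threshold without overlap, filled by lowest unadjusted p among genes of at least 2-fold difference without overlap. Of each list it names called members (up to 4), otherwise the 2 with the lowest p, and the 3 with the narrowest intervals. It adds Fcer1a, Kit, Hdc, Cma1, Ackr2 and subtype proteases. As the unpaired fit called no gene, the rule was also applied to the paired fit. Genes named for a replicate number or for 1 array, small RNAs, hosts and symbol families were chosen after their values were seen.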

Additional observations from a re-analysis of the deposited data

How the results depend on the processing

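With 5 arrays and no detection call, small differences and low signals are not resolved. Unpaired, 0 genes were called under every other planned setting, with leave-one-out counts from 0 to 4 (4 without 10-week replicate 1). The replicate block gave 315, and Clec12a (0.60) and Prg2 (0.57) then had the opposite sign; the random block, added later (consensus correlation 0.443), gave 0. Intervals within 2-fold numbered 8688 among genes above the median level, where fewer genes are tested, and 16070 to 18772 leaving out 1 array. The following settings of the paired fit were chosen after seeing the data. Paired calls numbered 880 with an intensity trend, 544 among genes above the median level, 18 after quantile normalization, 2 without moderation and 0 with all 6 wild type arrays; the snoRNA calls among them were 9 after quantile normalization, 0 without moderation and 0 with all 6. With all 6 arrays the paired difference changed sign for Cd52 (-0.23), Clec12a (-0.46), Clec4n (-0.02), Cxcl2 (0.01), Gzma (-0.20), H2-Aa (-0.24), H2-Ab1 (-0.30), Mpeg1 (-0.09), Ms4a6c (-0.30), Papss2 (0.85), Pilra (-0.26), Ppbp (0.28), Prxl2a (0.20) and Thy1 (-0.98). The cause of these changes was not tested.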
